A study of Mus musculus with 2 samples.

Results

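The effector-memory CD4 gate of mouse spleen held 54 cells of the 6588 barcodes kept, or 0.820% (95% Clopper-Pearson interval 0.616 to 1.07%). A cell entered it with at least 2 UMIs (unique molecular identifiers, one per captured transcript) over Cd3d, Cd3e and Cd3g, at most 1 over Cd79a, Cd79b and Ms4a1, at least 1 of Cd4, none of Cd8a or Cd8b1, and at least 2 over Maf, Icos, S100a4 and Cxcr6. It also had no UMI of Foxp3 or Ikzf2 and at most 2 over Ifit1, Ifit2, Ifit3, Usp18, Oasl1 and Rsad2. The cells were chosen by these counts, so the 4 genes of the sum are given as a description and support nothing.

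The study profiled spleen cells of mice aged 6 to 8 weeks by 10x droplet-based single-cell RNA sequencing. The title of 1 sample begins with WAS, and it was taken as the Wiskott-Aldrich knockout (WAS-KO). The other title begins with WT, and that sample was taken as wild type (WT). Both samples carry the same mouse model label, and the sources used here do not state the allele, the strain or the number of animals. Counts of all cells stand in 1 table of 7524 barcodes that share 1 suffix, and no barcode is tied to either sample. WAS-KO and WT cells were therefore not compared. Values below describe 1 pooled set of cells, with intervals for counting error only, and the differences between kinds of cells have no replicate check and no test.

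Effector-memory CD4 T cells are helper cells that have met antigen, have lost much of the lymph node homing programme of naive cells and make cytokines quickly when they meet it again. Ccr7 (the receptor that draws cells to T cell zones) marks naive and central memory cells, whereas Cd44 (a hyaluronan receptor) and Itgb1 (an integrin β chain) mark antigen-experienced ones. Icos is a costimulatory receptor of activated and follicular helper cells, Maf is a transcription factor of several helper subsets, S100a4 is a calcium-binding protein linked to cell motility, and Cxcr6 is a chemokine receptor of tissue-homing cells.

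Sequences upstream of 3 genes are shown because much of what follows turns on them: S100a4 of the rule, its neighbour S100a6, whose level differed between the gate cells with and without S100a4, and Cxcr3, a homing receptor of type 1 helper cells outside the rule. They come from RefSeq's GRCm38.p6 windows, are printed 5′ to 3′ on the gene's strand and end before the start of the gene in both RefSeq and GENCODE. The S100a4 window is chr3:90603520-90603769 (plus strand), the S100a6 window is chr3:90612644-90612881 (plus strand) and the Cxcr3 window is chrX:101734270-101734397 (minus strand). Capitals mark a match to the RUNX core TGTGGTT or its reverse complement AACCACA, or to the T-box half-site GGTGTGA or its reverse complement TCACACC.
S100a4: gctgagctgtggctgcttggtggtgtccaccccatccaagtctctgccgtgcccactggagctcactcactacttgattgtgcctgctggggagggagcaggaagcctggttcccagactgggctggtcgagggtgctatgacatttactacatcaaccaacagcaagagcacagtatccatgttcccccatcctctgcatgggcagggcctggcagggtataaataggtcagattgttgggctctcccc
S100a6: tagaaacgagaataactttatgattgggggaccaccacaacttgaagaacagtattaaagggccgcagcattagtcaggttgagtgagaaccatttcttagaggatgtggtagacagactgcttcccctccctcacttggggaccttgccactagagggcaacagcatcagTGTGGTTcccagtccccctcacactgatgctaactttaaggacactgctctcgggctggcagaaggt
Cxcr3: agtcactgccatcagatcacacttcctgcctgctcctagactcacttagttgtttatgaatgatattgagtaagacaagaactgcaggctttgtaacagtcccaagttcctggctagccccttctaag
The S100a6 window held 1 RUNX core, and the S100a4 and Cxcr3 windows held neither motif. The S100a4, S100a6 and Cxcr3 windows are 250, 238 and 128 bases long, so the last 2 are shorter than those behind the shares that follow. Over all 27025 windows of 250 bases upstream of a gene, 4.46% held the RUNX core and 3.31% the T-box half-site on either strand. Of the 15 genes with the highest ratios over zero-sum cells given below, 10 had such a window, of which 2 held the RUNX core and 1 the T-box half-site. The 15 include Hist1h1b and Hist1h2ae, whose UMIs lay mostly in 1 cell as given below. A match is a description of letters and not a bound site.

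The 54 cells were a minority of the gated helper cells. They made up 6.51% (4.92 to 8.40%) of the 830 gated T cells, 14.1% (10.8 to 18.0%) of the 383 gated CD4 T cells and 17.8% (13.7 to 22.6%) of the 303 CD4 cells without Foxp3 or Ikzf2. Of those 303, 197 had no UMI of the 4 genes (called zero-sum cells here) and 52 had exactly 1. The median depth was 6194.5 UMIs per cell in the gate (3925 to 22277), against 6518 UMIs in the zero-sum cells (1345 to 22067). The limits on other genes removed more cells than the gate kept: 58 cells missed it through Foxp3 or Ikzf2 alone, all with Ikzf2 and 12 with Foxp3, and 17 missed it through the interferon genes alone.

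Icos was found in most of the cells and S100a4 gave more UMIs than each of the other 3 genes. Icos (chr1:60977927-61000320, plus strand, GRCm38 as for all genes here) was detected in 44 of the 54 cells with 102 UMIs, and Maf (chr8:115682942-115707794, minus strand) in 30 with 93 UMIs. S100a4 (chr3:90603771-90606045, plus strand) was detected in 23 cells with 197 UMIs, of which 1 cell held 100, and Cxcr6 (chr9:123806475-123811760, plus strand) in 11 cells with 27 UMIs. Maf and Icos were found together in 25 cells and Maf and S100a4 in 14, and 2 cells had all 4 genes. In 13 cells Icos was the only one of the 4 (called Icos-only cells here), against 3 cells for S100a4, 1 for Maf and 1 for Cxcr6. The sum was exactly 2 in 15 cells, with a median of 4 and a maximum of 107.

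**Figure D1:**
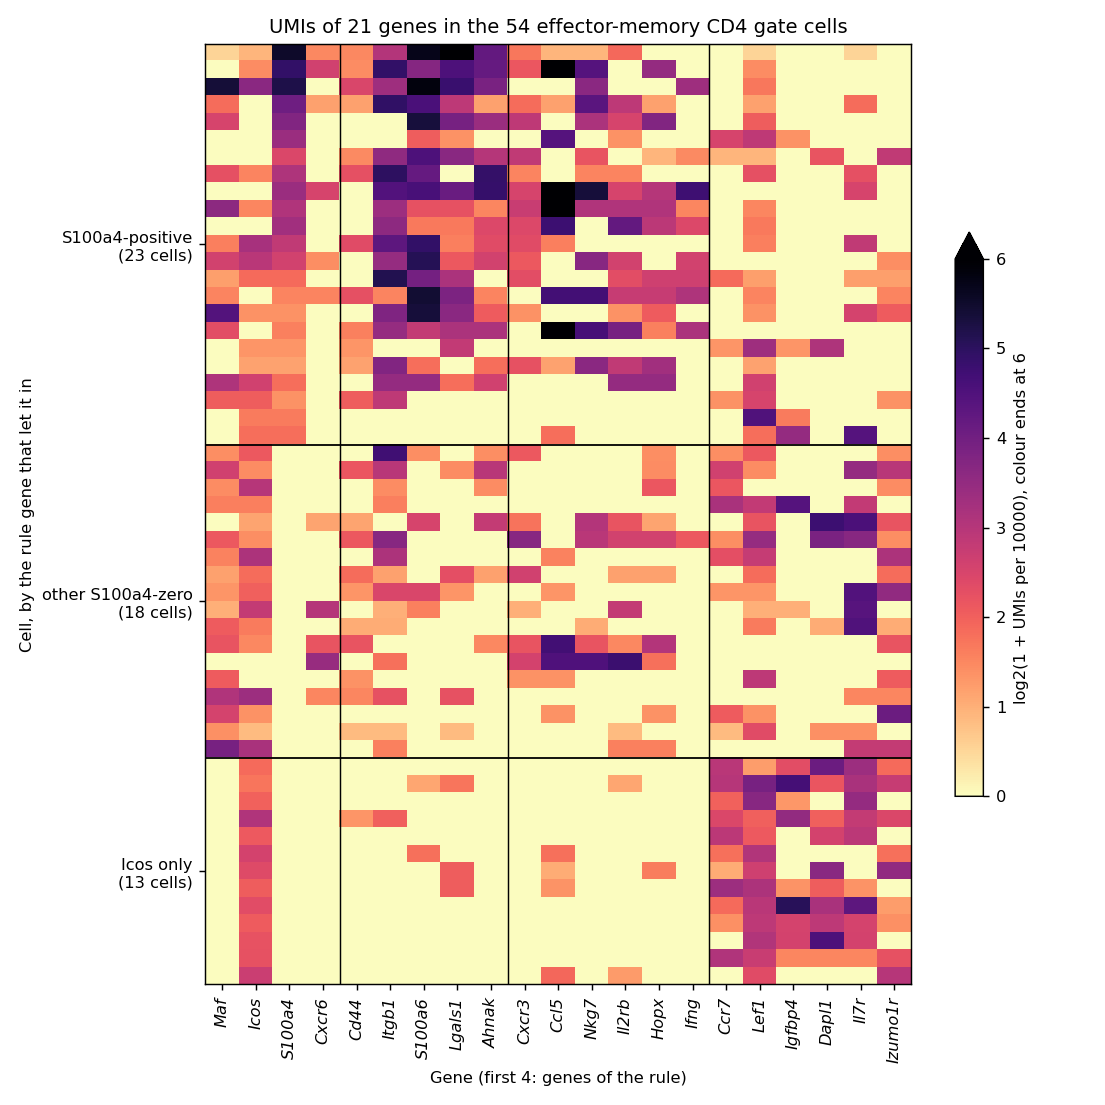
Each row is 1 of the 54 cells and each column 1 of 21 genes, coloured by log2(1 + UMIs per 10000), with cells split into 23 with S100a4, 18 others without S100a4 and 13 with Icos alone. Ccr7 was found in 5 of the 23 rows with S100a4 and in 11 of the 13 Icos-only rows, and Cd44 or Itgb1 in 19 and 1 of them.

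The label was checked against markers that the rule did not use, and it held for some of the cells and not for others. At least 1 UMI of Cd44 or Itgb1 was found in 19 of the 23 cells with S100a4 and in 17 of the 18 others without S100a4, against 41 of 197 zero-sum cells. Among the 13 Icos-only cells it was found in 1. At least 1 UMI of Ccr7 was found in 5 of 23 cells with S100a4, in 9 of 18 others without it and in 11 of 13 Icos-only cells, against 146 of 197 zero-sum cells. The Icos-only cells thus carried this naive homing gene at least as often as zero-sum cells did and rarely carried the memory genes, which goes against the label for them. Their median depth was 6833 UMIs, above the 5860 UMIs of the cells with S100a4.

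Levels of single genes gave the same split. They are in CPM, UMIs of the gene per 1000000 UMIs of the summed cells, with 95% Poisson intervals. Cd44 (chr2:102811141-102901665, minus strand) stood at 138 CPM (85.4 to 211) in cells with S100a4, 116 CPM (63.5 to 195) in others without it and 11.1 CPM (0.280 to 61.7) in Icos-only cells, against 19.1 CPM (12.4 to 28.2) in zero-sum cells. Ccr7 (chr11:99144196-99155077, minus strand) stood at 52.6 CPM (22.7 to 104) in cells with S100a4, 141 CPM (82.2 to 226) in others without it and 387 CPM (269.9 to 539) in Icos-only cells, against 318 CPM (288 to 349.6) in zero-sum cells. The intervals of Icos-only and zero-sum cells overlapped for both genes, and those of the other 2 kinds did not reach the zero-sum level. Igfbp4 (chr11:99041244-99054392, plus strand), a secreted binding protein of insulin-like growth factors that is typical of naive CD4 cells, stood at 46.0 CPM (18.5 to 94.7) in cells with S100a4, 91.3 CPM (45.6 to 163) in others without it and 719.6 CPM (555 to 917) in Icos-only cells, against 546 CPM (506 to 587) in zero-sum cells. Its UMIs were concentrated: of the 65 in Icos-only cells 1 cell held 24 and another 21, and of the 11 in the others without S100a4 1 cell held 10. It was found in 9 of 13 Icos-only cells and 123 of 197 zero-sum cells, and most of the UMIs of the Icos-only cells came from those 2 cells.

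Izumo1r (chr9:14885814-14903949, minus strand), the folate receptor 4 gene of regulatory and follicular helper cells, stood higher in the Icos-only cells than in zero-sum cells. It stood at 332 CPM (224 to 474) in Icos-only cells and 349 CPM (251 to 471) in the others without S100a4, against 106 CPM (89.4 to 126) in zero-sum cells, with intervals that did not overlap the zero-sum one. In cells with S100a4 it stood at 85.4 CPM (45.5 to 146), an interval that overlapped the zero-sum one. Its UMIs were uneven among Icos-only cells, with 10 in 1 cell, 5 in another and 5 in a further one. Izumo1r was also found more often in cells with a sum of 1 (46.2%) than in zero-sum cells (33.0%).

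**Figure D2:**
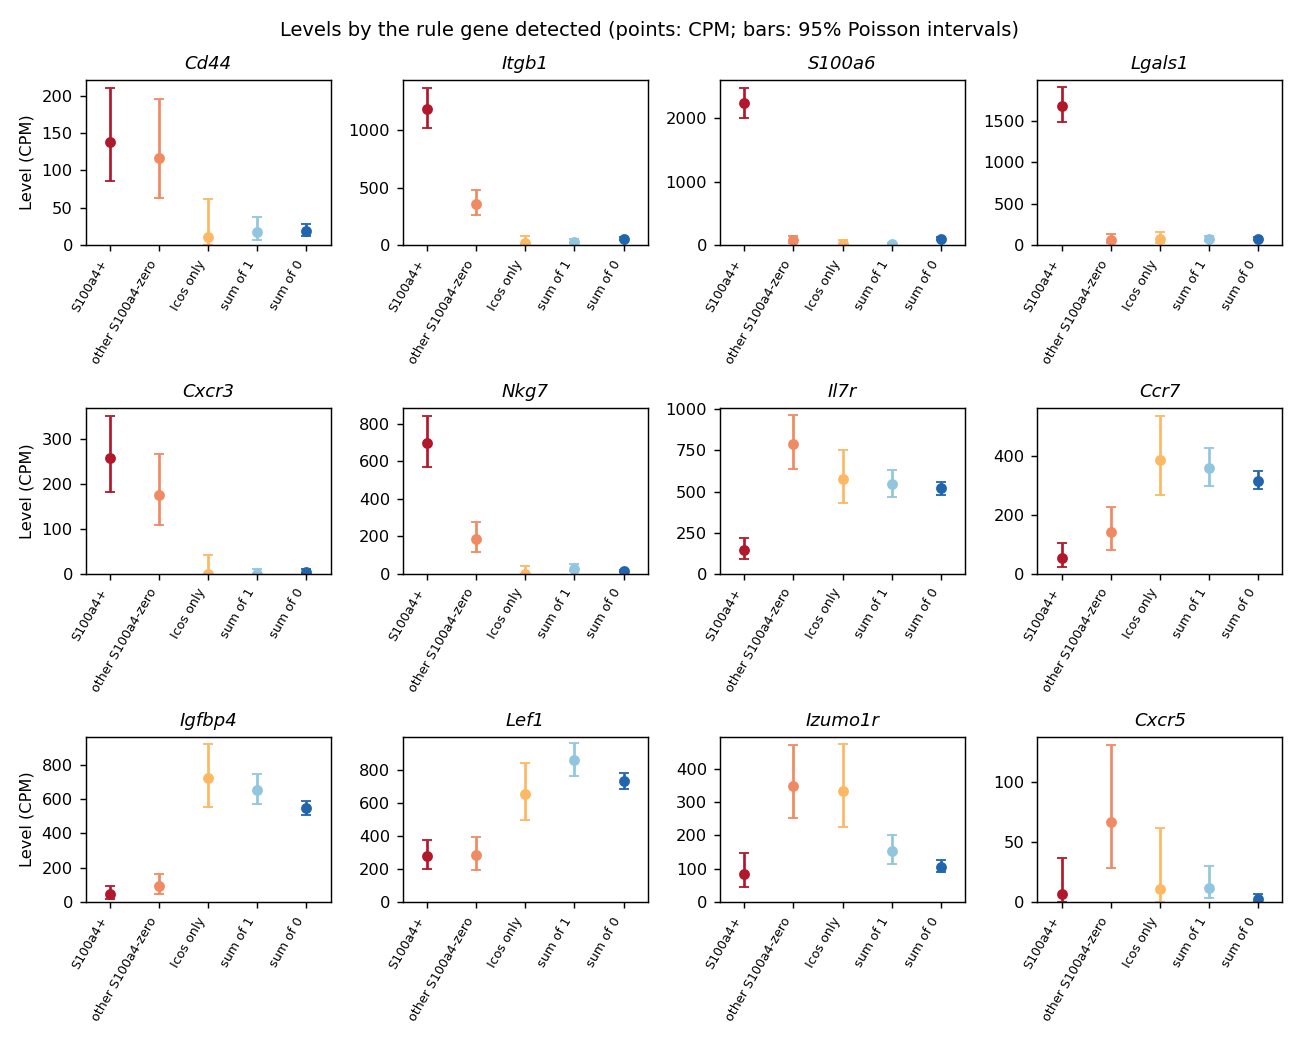
Points are the CPM of 12 genes in cells with S100a4, other S100a4-zero cells, Icos-only cells, and CD4 cells with a sum of 1 or 0, with 95% Poisson intervals as bars. For Cd44 (138 and 116 CPM against 19.1 CPM) and Cxcr3 (256 and 174 CPM against 4.59 CPM) the first 2 kinds stand above the zero-sum cells, and the Icos-only cells stand beside them.

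Cells at the minimum of the sum and just below it overlapped in these genes. The 15 gate cells with a sum of 2 had 42.6 CPM (11.6 to 109) of Cd44 and 362 CPM (250.5 to 505) of Ccr7, and 8 of them were Icos-only cells. The 52 cells with a sum of 1 had 17.4 CPM (6.38 to 37.8) of Cd44 and 359 CPM (299 to 428) of Ccr7, and for both genes the intervals overlapped. Cxcr3 had 3 cells with a UMI among the 15 and none among the 52, which allows up to 8.69 CPM. Cd44 or Itgb1 was found in 13 of the 52 cells.

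Against the zero-sum cells, the gate was higher in type 1 helper, cytotoxic, S100, memory and adhesion genes and lower in some naive genes. Among 4220 genes with 50 or more UMIs in the paired groups together, 156 (3.7%) were over 2-fold higher in the gate and 69 (1.64%) over 2-fold lower. The log2 ratios of all tested genes had a median of 0.19, and with median-of-ratios scaling, which moves that median to -0.07, the split became 74 higher and 142 lower. Ratios below are of CPM, with exact conditional binomial intervals at 95%. The 15 highest were Hist1h1b, Cxcr3, Ahnak, Nkg7, Ccl5, Il2rb, Itgb1, Ly6c2, Lgals1, S100a6, Top2a, Hopx, Ctla4, Hist1h2ae and Cd44. The histone genes in it rest on 1 cell, the deepest of the gate, which held 90 of 92 Hist1h1b UMIs and 28 of 31 Hist1h2ae UMIs. Without that cell the log2 ratio of Hist1h2ae was -0.80.

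Of these 15 genes 4, Cxcr3, Nkg7, Ccl5 and Hopx, belong to the type 1 helper list. Cxcr3 (chrX:101731535-101734269, minus strand), the receptor that draws type 1 cells to inflamed tissue, had 165 CPM (126 to 213) in the gate and 4.59 CPM (1.68 to 9.99) in zero-sum cells (log2 ratio 5.17, 3.96 to 6.67). Ccl5 (chr11:83525778-83530518, minus strand), a chemokine of memory and cytotoxic T cells, had 1176 CPM in the gate and 55.9 CPM in zero-sum cells (log2 ratio 4.40, 4.04 to 4.77). Nkg7 (chr7:43437073-43438249, plus strand), a cytotoxic granule membrane protein, had 353 CPM in the gate and 13.01 CPM in zero-sum cells (log2 ratio 4.76, 4.03 to 5.58). These genes were not spread evenly over the gate: Cxcr3 was found in 22 of 54 cells, Nkg7 in 18 and Ccl5 in 22, where 1 cell held 176 of its 427 UMIs.

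Some other genes of that list were higher in the gate too. Hopx, a homeodomain cofactor of effector T cells, had 179 CPM in the gate and 24.5 CPM in zero-sum cells (log2 ratio 2.87, 2.24 to 3.53). Ifng, the cytokine that defines type 1 help, had 37 UMIs in 10 of 54 gate cells and 2 UMIs in 2 of 197 zero-sum cells. Tbx21, the transcription factor that directs type 1 fate, had 9 UMIs in 7 gate cells and 2 UMIs in zero-sum cells, and the 7 gate cells all had S100a4. Of the 11 type 1 list genes with at least 20 UMIs, 9 were over 2-fold higher and 0 over 2-fold lower, where 7.18% of the 6906 genes at that minimum were higher and 3.68% lower. The list median was 2.87, against 0.20 over all those genes. A gene with few UMIs in zero-sum cells, such as Ifng, reached the minimum only through the gate, where it was high. The count is therefore tilted towards higher genes, which holds for the other lists below too.

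S100, annexin and cytoskeletal genes were also higher. Ahnak (chr19:8989284-9076914, plus strand), a giant scaffold protein beneath the plasma membrane, had 355 CPM in the gate and 11.5 CPM in zero-sum cells (log2 ratio 4.95, 4.18 to 5.83). S100a6 (chr3:90612882-90624181, plus strand), a calcium-binding relative of S100a4, had 969.6 CPM in the gate and 105 CPM in zero-sum cells (log2 ratio 3.21, 2.92 to 3.50). Lgals1 (chr15:78926725-78930465, plus strand), a galectin that binds cell surface glycans, had 746 CPM in the gate and 79.6 CPM in zero-sum cells (log2 ratio 3.23, 2.90 to 3.57). A single gate cell held 115 of the 352 S100a6 UMIs and 161 of the 271 Lgals1 UMIs, and without it the log2 ratios were 2.73 for S100a6 and 2.02 for Lgals1. Conversely, 1 zero-sum cell rich in myeloid transcripts held 102 of the 137 zero-sum S100a6 UMIs. Without the 3 zero-sum cells rich in myeloid or erythroid transcripts, of which it is 1, the log2 ratio of S100a6 was 5.11. Of the 21 measured genes of the S100, annexin and cytoskeletal list, 13 were over 2-fold higher and 1, Anxa1, over 2-fold lower. Of all genes with at least 20 UMIs, 7.18% were higher and 3.68% lower. A single zero-sum cell held 146 of the 152 Anxa1 UMIs of its group.

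Several integrins were higher too. Itgb1 (chr8:128685654-128733200, plus strand) had 619.8 CPM (541 to 706) in the gate and 55.9 CPM (43.8 to 70.2) in zero-sum cells (log2 ratio 3.47, 3.09 to 3.87). Itga4, its partner in the VLA-4 receptor, had 537 CPM in the gate and 166 CPM in zero-sum cells (log2 ratio 1.69, 1.41 to 1.98), and Itgal, the α chain of LFA-1, had 300.2 CPM and 113 CPM (log2 ratio 1.41, 1.04 to 1.77). Of 14 measured integrin and adhesion genes, 5 were over 2-fold higher and 0 over 2-fold lower, where 7.18% and 3.68% of all genes were. Each cell was then thinned to 2000 UMIs, which left out 1 zero-sum cell and 38 cells of the B cell gate as shallower. Itgb1 was found in 44.4% of gate cells and 6.63% of zero-sum cells, with 5.93% in the B cell gate. In the regulatory and CD8 gates described below it was found in 42.5% and 39.1% of cells. Cxcr3 was found in 16.7% of gate cells and 1.02% of zero-sum cells, with 0.620% in the B cell gate. In the regulatory and CD8 gates it was found in 23.8% and 35.9%. For both genes the intervals of the effector-memory gate overlapped those of the regulatory and CD8 gates. The share of zero-sum cells was close to that of the B cell gate for both genes. Without thinning Itgb1 was found in 33 of 54 gate cells and 33 of 197 zero-sum cells.

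Memory markers were higher and some naive genes lower. Of 13 measured memory and activation markers 6 were over 2-fold higher and 0 lower, with a median log2 ratio of 0.84. Cxcr3 and Itgb1 above are among them. Over all genes with at least 20 UMIs, 7.18% were higher and 3.68% lower, which holds for the naive list below too. Il2rb, a receptor chain for interleukin 2 and 15, had 234 CPM in the gate and 13.8 CPM in zero-sum cells (log2 ratio 4.09, 3.34 to 4.91). Cd44 had 99.2 CPM (69.5 to 137) in the gate and 19.1 CPM (12.4 to 28.2) in zero-sum cells (log2 ratio 2.37, 1.60 to 3.17), with a UMI in 23 of 54 and 16 of 197 cells. Ccr7 had 165 CPM in the gate and 318 CPM in zero-sum cells (log2 ratio -0.94, -1.36 to -0.55). Lef1, a transcription factor of naive T cells, had 372 CPM in the gate and 730.0 CPM in zero-sum cells (log2 ratio -0.97, -1.24 to -0.71). Tcf7, which encodes the related factor TCF-1, had 636 CPM (557 to 724) in the gate and 587 CPM (546 to 629.9) in zero-sum cells, with overlapping intervals. Of 14 naive and recirculation genes 0 were over 2-fold higher and 3 over 2-fold lower, with a median log2 ratio of -0.54. Among them were Igfbp4 (log2 ratio -1.25, -1.60 to -0.93) and Ly6c1, a surface protein of resting T cells (log2 ratio -2.18).

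Follicular helper genes were split between higher members and members near the detection limit. Izumo1r had 234 CPM in the gate and 106 CPM in zero-sum cells (log2 ratio 1.14, 0.73 to 1.54), and Sh2d1a, the SLAM adaptor that helps T cells bind B cells, had 179 CPM and 68.1 CPM (log2 ratio 1.39, 0.91 to 1.87). Cxcr5, the receptor for follicles, had 10 UMIs in 8 gate cells and 3 UMIs in 2 zero-sum cells. Of the Cxcr5 UMIs of the gate, 8 lay in the 18 cells without S100a4 that were not Icos-only cells, 1 in Icos-only cells and 1 in cells with S100a4. Bcl6, the follicular helper transcription factor, had 7 UMIs in 4 gate cells and 17 UMIs in 13 of 197 zero-sum cells (log2 ratio 0.57, -0.94 to 1.91). Pdcd1, the PD-1 gene, had 4 UMIs in the gate and 0 in zero-sum cells. Of 10 measured genes of the list 5 were over 2-fold higher and 0 over 2-fold lower, with a median log2 ratio of 0.82. Of all genes with at least 20 UMIs, 7.18% were higher and 3.68% lower.

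Few type 2 and type 17 genes could be measured. Of the 9 type 2 and 11 type 17 list genes, 2 and 1 reached 20 UMIs in the paired groups together: Gata3, Il4ra and Rora. Gata3, the type 2 factor, had 85.4 CPM (58.0 to 121) in the gate and 51.3 CPM (39.7 to 65.1) in zero-sum cells. Il4ra, the interleukin 4 receptor chain, had 60.6 CPM (38.0 to 91.7) in the gate and 69.6 CPM (56.1 to 85.5) in zero-sum cells, with overlapping intervals. Rora, a nuclear receptor of type 17 and memory cells, had 60.6 CPM in the gate and 10.7 CPM in zero-sum cells (log2 ratio 2.50, 1.47 to 3.58). Ctla4, an inhibitory receptor of activated and regulatory cells, had 88.1 CPM (60.3 to 124) in the gate and 15.3 CPM (9.35 to 23.6) in zero-sum cells (log2 ratio 2.53, 1.68 to 3.41).

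Most cytotoxic genes were higher in the gate. Gzma, a granzyme, had 77.1 CPM in the gate and 7.65 CPM in zero-sum cells (log2 ratio 3.33, 2.25 to 4.54), and its 28 gate UMIs lay in 5 cells. Prf1, the pore protein perforin, had 3 UMIs in the gate and 52 UMIs in zero-sum cells (log2 ratio -2.27, -4.59 to -0.64). Of 8 measured cytotoxic genes 7 were over 2-fold higher and 1, Prf1, over 2-fold lower, with a median log2 ratio of 2.15. Over all genes with at least 20 UMIs, 7.18% were higher and 3.68% lower. Nkg7 and Ctsw are in both this list and the type 1 list, so the lists are not separate counts.

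**Figure D3:**
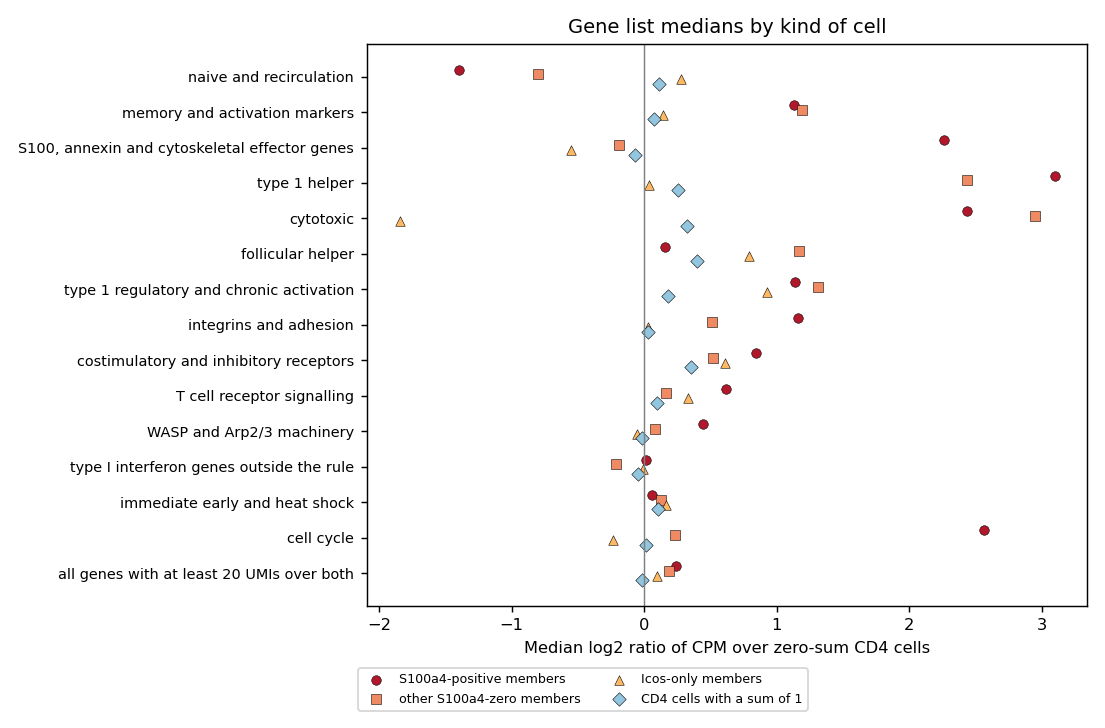
Points are the median log2 ratio of CPM over zero-sum CD4 cells for 14 gene lists and for all genes with at least 20 UMIs, in cells with S100a4, other S100a4-zero cells, Icos-only cells and CD4 cells with a sum of 1. For the type 1 list the medians are 3.10 and 2.44 in the first 2 kinds and 0.03 in Icos-only cells, and for the naive list they are -1.40, -0.80 and 0.28. The type 1 medians cover different sets of 10, 9 and 6 measured genes, whereas the naive medians cover the same 14.

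The lists differed between the 3 kinds of gate cells, but the measured genes were not the same in each kind. A gene was measured with at least 20 UMIs over that kind and the zero-sum cells together. Genes low in both drop out, and genes low in zero-sum cells enter only through a kind where they are high. The counts of measured genes below are therefore partly shaped by this minimum. Over zero-sum cells, 9 of 10 measured type 1 genes were over 2-fold higher in cells with S100a4, 6 of 9 in the others without it and 0 of 6 in Icos-only cells, where 14.4%, 10.6% and 8.24% of all genes were. Of the S100 list, 17 of 20 measured genes were higher in cells with S100a4, 3 of 18 in the others without it and 0 of 17 in Icos-only cells. Of 14 naive genes, 8, 5 and 0 were over 2-fold lower in these 3 kinds, where 7.89%, 8.79% and 9.73% of all genes were. Of the follicular helper list, 2 of 8 measured genes were higher in cells with S100a4, 4 of 8 in the others without it and 3 of 8 in Icos-only cells.

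The lower end of the ranking rested mostly on 3 zero-sum cells. The 15 lowest genes were Ltf, Lcn2, S100a8, Ngp, S100a9, Chil3, Camp, Anxa1, Lyz2, Sox4, Ttc28, Wfdc21, Ifitm6, Alas2 and Prf1, of which most encode proteins of neutrophils or monocytes and Alas2 is the erythroid haem enzyme. S100a8, a subunit of calprotectin, had 129 CPM in the gate and 2905 CPM in zero-sum cells, where 1 cell held 3631 of 3797 UMIs. In 3 zero-sum cells over 10% of UMIs came from the myeloid and erythroid lists, against 0 cells in the gate. Without these 3, the log2 ratio of S100a8 was -0.02, of S100a9 0.01, of Camp 0.10 and of Ngp 0.37. The lowest genes were then Sox4, a transcription factor of early lymphocytes, at -3.26, Ttc28 at -2.86, Prf1 at -2.33 and Ly6c1 at -2.24. The counts became 138 higher and 54 lower.

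Within the gate, the 23 cells with S100a4 stood above the 31 without it in other genes of the S100 list, in type 1 genes and in cell cycle genes. Among 1086 genes with 50 or more UMIs, 70 (6.45%) were over 2-fold higher with S100a4 and 28 (2.58%) over 2-fold lower. With median-of-ratios scaling these were 56 and 50, as that scaling moved the median ratio to -0.08 against 0.10. S100a6 had 2234 CPM (2002 to 2484) in cells with S100a4 and 56.9 CPM (29.4 to 99.4) in those without (log2 ratio 5.29, 4.47 to 6.26). Crip1, a LIM domain protein, had 2779 CPM in cells with S100a4 and 318 CPM in those without (log2 ratio 3.13, 2.75 to 3.52), and Vim, the intermediate filament vimentin, had 880.3 CPM and 104 CPM (log2 ratio 3.08, 2.42 to 3.80). Of 18 measured genes of the S100 list 17 were over 2-fold higher with S100a4 and 0 lower, with a median log2 ratio of 2.16, where 9.99% and 4.89% of the 2903 genes with at least 20 UMIs were. Of 10 measured type 1 genes 7 were higher and 0 lower, with a median of 1.61. Of 12 measured cell cycle genes 9 were higher and 0 lower, with a median of 2.38 that came to 0.046 without the deepest cell, and the highest ratio apart from S100a4 itself, that of Hist1h1b (log2 ratio 5.96), rests on the 90 UMIs of that cell.

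Myeloid transcripts stood higher in the cells with S100a4 as well. Of 7 measured genes of the myeloid list 5 were over 2-fold higher with S100a4 and 0 lower, with a median log2 ratio of 1.76. Of all genes with at least 20 UMIs, 9.99% were higher and 4.89% lower. The list of 19 genes summed to 1675 CPM in cells with S100a4 and 712 CPM in those without, with 4 genes at 0 in each. The cell that Scrublet, a doublet caller, marked held 114 of the 255 myeloid UMIs of the cells with S100a4, and the median over single cells was 712 CPM with S100a4 (186 to 17896) and 585 CPM without it (160 to 2129). Without the cell marked by Scrublet 73 genes were over 2-fold higher with S100a4 and 25 lower. The part of these transcripts in the differences was not tested.

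The deepest cell of the gate, with 22277 UMIs, weighed on several of the S100 list genes. It held 100 S100a4, 115 S100a6, 161 Lgals1 and 90 Vim UMIs and was not called a doublet. Without it, cells with S100a4 had 1731 CPM (1513 to 1973) of S100a6 and 593 CPM (468 to 741) of Ahnak. Lgals1 came to 731 CPM (591 to 894) without the cell, against 1682 CPM with it, and Vim to 339 CPM (246 to 455), against 880.3 CPM. Each of the 4 levels stayed above that of the cells without S100a4, which was 61.7 CPM for Ahnak, 71.2 CPM for Lgals1 and 104 CPM for Vim.

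Naive genes and Il7r were lower in the cells with S100a4. Il7r, the interleukin 7 receptor that sustains resting and memory T cells, had 145 CPM (90.6 to 219) in cells with S100a4 and 697 CPM (589 to 819.6) in those without (log2 ratio -2.27, -2.99 to -1.62). Igfbp4 had 46.0 CPM in cells with S100a4 and 361 CPM in those without (log2 ratio -2.97, -4.33 to -1.86), and Satb1, a chromatin organiser of naive T cells, had 171 CPM and 649.9 CPM (log2 ratio -1.93, -2.59 to -1.32). Among the cells without S100a4, the Icos-only ones held 65 of 76 Igfbp4 UMIs, whereas Il7r stood at 788 CPM (638 to 964) in the 18 others and 576 CPM (429.9 to 755) in Icos-only cells, with overlapping intervals. Of 13 measured naive genes 6 were over 2-fold lower with S100a4 and 0 higher, where 4.89% and 9.99% of all genes were.

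Summed lists showed the spread from cell to cell. The S100 list, which leaves out S100a4, had a median of 125 UMIs per 10000 in cells with S100a4 (15.3 to 360.5), 24.4 in others without it (8.00 to 106) and 15.7 in Icos-only cells (4.15 to 26.6), against 22.4 in zero-sum cells (0 to 165). The naive list had medians of 37.6 UMIs per 10000 in cells with S100a4, 33.7 in others without it and 76.5 in Icos-only cells, against 61.7 in zero-sum cells. The ranges of these kinds overlapped for both lists.

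**Figure D4:**
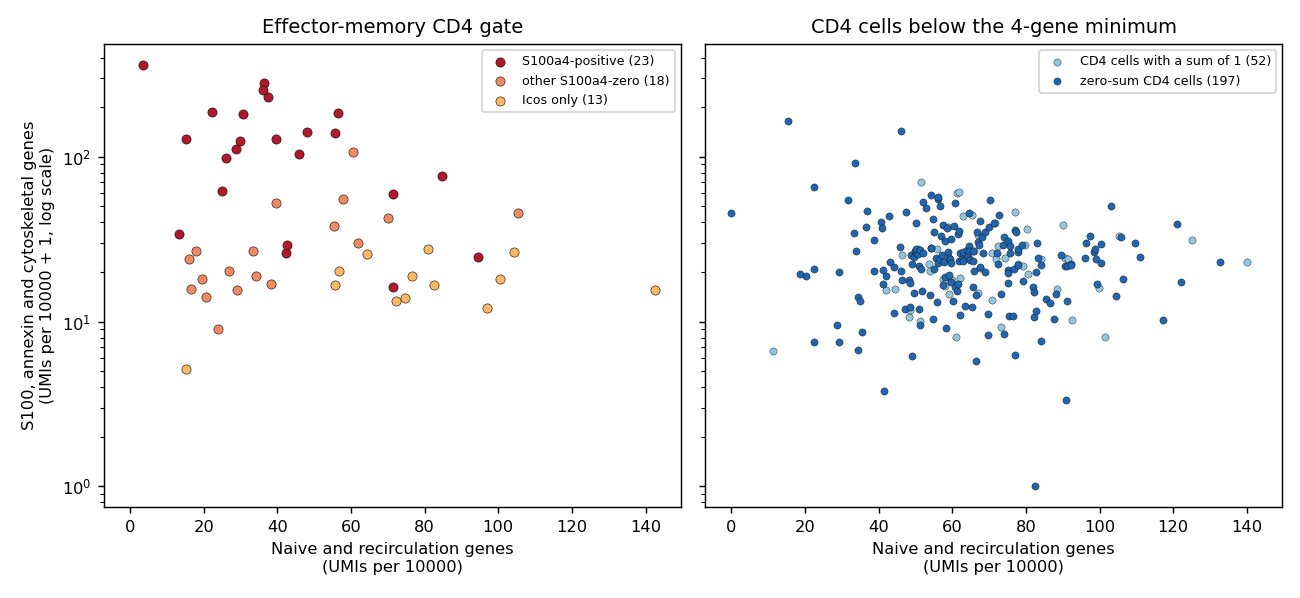
Each point is 1 cell, with UMIs per 10000 of the naive and recirculation list on the x axis and of the S100, annexin and cytoskeletal list plus 1 on the log y axis, for the 54 gate cells (left) and the CD4 cells with a sum of 1 or 0 (right). Cells with S100a4 lie highest (median 125 UMIs per 10000) and Icos-only cells lie in the range of the zero-sum cells (medians 15.7 and 22.4).

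The higher level of cell cycle genes in the gate rested largely on 1 cell. Mki67, a proliferation antigen, had 33 UMIs in 7 of 54 gate cells and 3 UMIs in 2 of 197 zero-sum cells, and Top2a, a topoisomerase of dividing cells, had 37 UMIs in 12 cells and 17 UMIs in 13 cells. Mcm6, a subunit of the replicative helicase, was found in 16 of 54 gate cells and 29 of 197 zero-sum cells. The deepest cell held 25 of the Mki67 UMIs, 22 of the Top2a UMIs and 8 of the 27 Mcm6 UMIs. The cell cycle list, with 10 of 15 measured genes over 2-fold higher and 0 lower, had a median log2 ratio of 1.64, and of 0.33 without that cell. Of all genes with at least 20 UMIs, 7.18% were higher and 3.68% lower.

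Was, the gene named in the title of the WAS-KO sample, and its measured actin partners stayed within 2-fold of their level in zero-sum cells. Was had 31 UMIs in 22 gate cells, 85.4 CPM (58.0 to 121), against 57.4 CPM (45.1 to 71.9) in zero-sum cells (log2 ratio 0.57, -0.08 to 1.20). That interval ran from below no difference to past 2-fold. Barcodes are not tied to WAS-KO or WT, so the share of knockout cells in each group is unknown. A Was level therefore cannot be ascribed to the kind of cell. Of 33 measured genes of the WASP and Arp2/3 list 0 were over 2-fold higher or lower, with a median log2 ratio of 0.27 against 0.20 over all genes at that minimum. Of all those genes 7.18% were higher and 3.68% lower, so a count of 0 in so short a list says little. Actg1, γ-actin, and Rac2, a blood cell GTPase, had log2 ratios of 0.49 and 0.50. Between cells with and without S100a4, 3 of 30 measured genes were over 2-fold higher with it, a share close to the background of 9.99% of all genes.

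T cell receptor and costimulation genes differed less than the type 1 list. Cd28, the main costimulatory receptor, had 642 CPM (562 to 729.7) in the gate and 359.6 CPM (328 to 394) in zero-sum cells. Nfatc1, a calcium-regulated transcription factor, had 138 CPM in the gate and 52.8 CPM in zero-sum cells (log2 ratio 1.38, 0.83 to 1.93). Of 27 T cell receptor signalling genes 2 were over 2-fold higher and 0 lower, which is close to the share of 7.18% of all genes that were higher. The list includes Cd3d, Cd3e and Cd3g, whose sum the rule set at 2 or more UMIs in both groups. Part of this count was therefore shaped by the rule. Of 14 costimulatory and inhibitory receptors 4 were higher and 0 lower. Of 24 interferon genes outside the rule 0 were higher and 1, the GTPase gene Gbp2, was lower (log2 ratio -1.37, -2.41 to -0.47). Both groups were held to at most 2 UMIs over the interferon genes of the rule. Cells with more of them were left out of both groups, so this count cannot tell whether interferon genes differ.

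The regulatory gate, 80 CD4 cells with at least 1 UMI of Foxp3 or Ikzf2, stood above the 54 cells in regulatory genes and in part of the chronic activation and costimulatory receptor genes. Its cells could have any sum of the 4 genes, whereas the 54 needed at least 2, so the gates were not chosen alike. Among 2791 genes with 50 or more UMIs in these gates together, 25 (0.896%) were over 2-fold higher in the effector-memory gate and 66 (2.36%) over 2-fold lower. Il2ra, the high-affinity interleukin 2 receptor chain, had 2 UMIs in the effector-memory gate and 54 UMIs in the regulatory gate (log2 ratio -4.27, -7.35 to -2.34). Tnfrsf4 (OX40) had 30.3 CPM in the effector-memory gate and 222 CPM in the regulatory gate (log2 ratio -2.87, -3.92 to -1.98). Tnfrsf18 (GITR) had 49.6 CPM and 214 CPM (log2 ratio -2.11, -2.92 to -1.38), and Tnfrsf9 (4-1BB) had 24.8 CPM and 157 CPM (log2 ratio -2.66, -3.84 to -1.67). Of 11 measured regulatory genes outside the rule 0 were over 2-fold higher and 10 lower, where 2.49% and 5.4% of the 5576 genes with at least 20 UMIs were. Of 10 measured type 1 regulatory and chronic activation genes 8 were lower in the effector-memory gate, and of 19 costimulatory and inhibitory receptors 8. Of 14 cell cycle genes 8 were higher in it, with a median log2 ratio of 1.32 that came to -0.048 without the deepest cell.

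Memory and activation markers were split between the gates. Of 17 measured, 1 was over 2-fold higher in the effector-memory gate, Ly6c2 (log2 ratio 1.11, 0.64 to 1.59), and 5 were lower, with a median log2 ratio of -0.64. The lower ones were Tnfrsf4, Tnfrsf18 and Tnfrsf9, the inhibitory receptor gene Klrg1 (log2 ratio -4.16, -9.52 to -1.55) and Bhlhe40, a transcription factor of activated T cells (log2 ratio -1.77, -2.99 to -0.71). Cd44 had 99.2 CPM (69.5 to 137) in the effector-memory gate and 106 CPM (79.7 to 138) in the regulatory gate, Cxcr3 had 165 CPM (126 to 213) and 145 CPM (114 to 183), and Nkg7, of the type 1 list, had 353 CPM (294 to 419) and 322 CPM (275 to 375), each with overlapping intervals. Of 21 measured genes of the S100 list 0 were over 2-fold higher in the effector-memory gate and 2 lower, with a median log2 ratio of -0.26. Of 12 measured type 1 genes 1 was higher and 0 lower, with a median of 0.07. Over all genes with at least 20 UMIs, 2.49% were higher and 5.4% lower. Ifng was higher in the effector-memory gate, with 102 CPM against 35.4 CPM (log2 ratio 1.53, 0.68 to 2.43). Dapl1 and Igfbp4, both genes of naive cells, were higher in it too, at 286 CPM against 19.6 CPM (log2 ratio 3.87, 2.93 to 4.97) and 229 CPM against 21.6 CPM (log2 ratio 3.40, 2.49 to 4.46). Of the Igfbp4 UMIs of the effector-memory gate, 65 of 83 lay in the Icos-only cells.

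CD8 T cells with the same minimum of the 4-gene sum were richer in cytotoxic genes. This gate held 64 cells with a median of 8214 UMIs. Among 2795 genes, 76 (2.72%) were over 2-fold higher in the CD4 cells and 75 (2.68%) over 2-fold lower, and with median-of-ratios scaling 53 and 98. Ccl4, a chemokine, had 2 UMIs in the CD4 cells and 185 UMIs in the CD8 cells (log2 ratio -5.88, -8.94 to -4.01). Gzmb, a granzyme, had 13.8 CPM in the CD4 cells and 335 CPM in the CD8 cells (log2 ratio -4.61, -6.25 to -3.36), and Eomes, a T-box factor of cytotoxic memory, had 5.51 CPM and 133 CPM (log2 ratio -4.60, -7.67 to -2.70). Of 13 cytotoxic genes 0 were over 2-fold higher in the CD4 cells and 12 lower, with a median log2 ratio of -3.44. Of the 5536 genes with at least 20 UMIs, 5.73% were higher and 4.79% lower. Of 14 measured type 1 genes 0 were higher in the CD4 cells and 8 lower, with a median of -1.15. Of 20 measured genes of the S100 list 0 were higher and 4 lower, with a median of -0.33.

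The genes higher in the CD4 cells included known helper genes. Izumo1r had 234 CPM in the CD4 cells and 15.8 CPM in the CD8 cells (log2 ratio 3.89, 2.90 to 5.07), and Trat1, a T cell receptor adaptor, had 132 CPM and 19.3 CPM (log2 ratio 2.78, 1.81 to 3.87). Zbtb7b, the factor that fixes the CD4 lineage, had 20 UMIs in the CD4 cells and 1 in the CD8 cells, and Cd40lg, the ligand with which helper cells activate B cells, had 34 and 2. Cd44 had 99.2 CPM (69.5 to 137) in the CD4 cells and 84.3 CPM (62.1 to 112) in the CD8 cells, with overlapping intervals. Cxcr3 had 165 CPM (126 to 213) and 195 CPM (160.3 to 235), and Was had 85.4 CPM (58.0 to 121) and 84.3 CPM (62.1 to 112), each with overlapping intervals. The Was levels carry the limit on genotype given above.

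**Figure D5:**
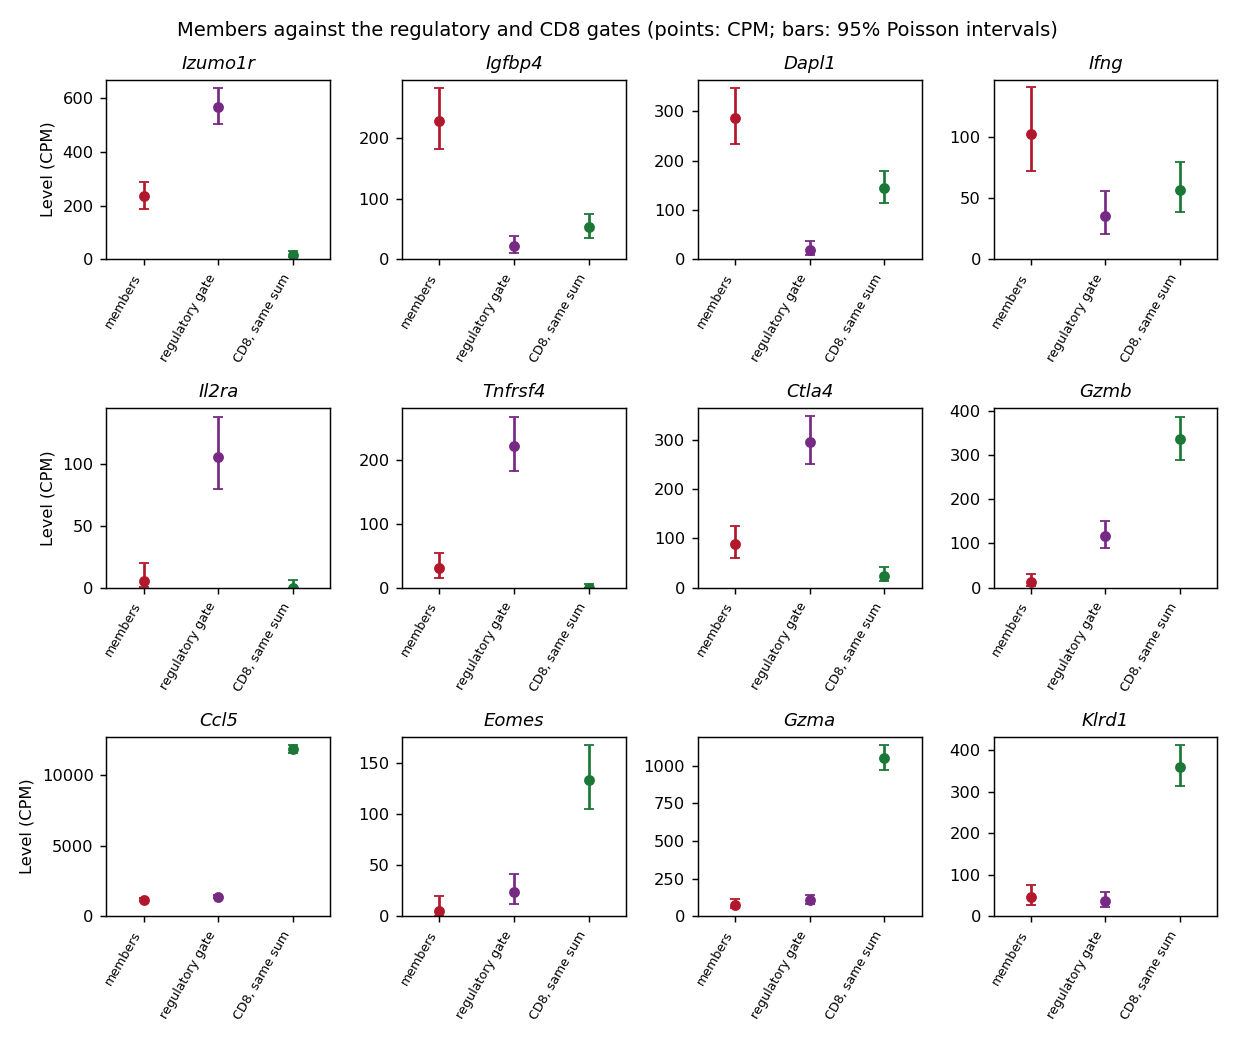
Points are the CPM of 12 genes in the 54 effector-memory CD4 gate cells, the 80 regulatory gate cells and the 64 CD8 cells of the same sum, with 95% Poisson intervals as bars. Il2ra (5.51 CPM against 106 CPM) and Tnfrsf4 (30.3 CPM against 222 CPM) set the regulatory gate apart, and Ccl5 (1176 CPM against 11907 CPM) and Eomes (5.51 CPM against 133 CPM) the CD8 cells.

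Transcripts of other cells were low in the gate apart from 1 cell. The myeloid list had a median of 643 CPM per gate cell (160 to 17896), against 637 CPM in zero-sum cells, with 1 of its 19 genes at 0 in the gate. A cell with S100a4 held 114 of the 405 myeloid UMIs of the gate and 41 of the 93 UMIs of Cd74, the class II invariant chain, and it was the 1 cell of the gate that Scrublet called a doublet. The erythroid and platelet list had a median of 1172 CPM per gate cell and 1294 CPM per zero-sum cell, and the B and plasma cell list 1042 CPM and 968 CPM. The part of free RNA or of second cells in the differences above was not tested.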

How the data were processed

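The deposited table holds whole UMI counts of 31017 gene symbols in 7524 barcodes, with 46882070 UMIs in all and 500 to 129686 per barcode. Per the labels' protocols the libraries were single cell 3′ libraries and transcripts were mapped to mm10-3.0.0. The mapping program is not given in the sources used here. Counts in 0 columns belonged to another series.

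Barcodes with at least 200 genes and at most 10% mitochondrial UMIs were kept, which removed 101 barcodes under the gene minimum and 857 over the mitochondrial maximum. The 6588 kept barcodes had medians of 5339 UMIs and 1907 genes. Doublets were left in, as the rule has no doublet limit. Scrublet, run through scanpy 1.11.5, called 137 barcodes (2.08%) and 1 of the 54 gate cells.

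UMIs were summed over the cells of a gate. Python 3.11.15, NumPy 2.4.6, SciPy 1.17.1 and matplotlib 3.10.9 were used. Levels have exact Poisson intervals, shares have Clopper-Pearson intervals and ratios have conditional binomial intervals, all at 95%. A gene was counted past 2-fold by its CPM ratio alone, among genes with at least 50 UMIs (20 for the 30 gene lists), and a group at 0 was set at 3 UMIs. The ratio step was tested on simulated data. With the samples not separable by barcode there is no replicate and no p-value.

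The cells, gene lists and tests were chosen with earlier results of these data known. Named genes were the 15 highest and lowest ratios over zero-sum cells, the 8 highest and lowest of the other comparisons, up to 6 per list and a fixed set of markers, of which a few are not reported here. Genes of the rule, variable receptor and immunoglobulin genes, haemoglobin, mitochondrial, ribosomal protein and sex-linked genes and unnamed gene models were left out of the ranks. Gene positions come from a GRCm38 annotation, in which 289 of 290 named genes matched by symbol, and upstream sequences from RefSeq. The alternatives were other limits of the rule, other minimums, scaling by size factors, equal weight per cell, thinning to 2000 UMIs, and the rule applied to 1 random part of each cell's UMIs with values from the rest.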

Additional observations from a re-analysis of the deposited data

How the results depend on the processing

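The number of cells depended on the rule. It was 34 with a mitochondrial maximum of 5%, 34 with B cell genes at 0, 106 with a sum of at least 1 and 27 when cells were thinned to 2000 UMIs before the rule, against 54. Against zero-sum cells, the genes over 2-fold higher and lower (156 and 69) were 496 and 254 with at least 20 UMIs, 22 and 13 with at least 200 UMIs, 74 and 142 with size factors, and 40 and 29 after thinning, which leaves fewer genes to test. Each cell's UMIs were also split at random into 2 parts, with each UMI equally likely to fall in either. The rule was applied to 1 part and the values came from the other, which gave 35 gate cells, 23 of them among the 54. The lower count over zero-sum cells was then 105, with 24 genes shared with the 69, and 50 of 147 higher genes were shared with the 156. The counts were 6 higher and 18 lower over the regulatory gate (25 and 66), 29 and 47 over CD8 cells (76 and 75), and 20 and 6 with S100a4 over without (70 and 28), where size factors gave 50 lower.

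Over 554 named gene ratios there were 17 changes of sign under the alternatives, and over 115 list medians 2. Hist1h1b and Rrm2 over CD8 cells are counted again for each alternative that changed them. Fewer ratios were compared under thinning and under the split. In the split, over zero-sum cells, H2-Aa came to -0.32, H2-Eb1 to -1.26 and Tyrobp to 0.20. H2-Aa came to -0.36 over the regulatory gate and -0.35 over CD8 cells, Hist1h1b to -0.51 over CD8 cells, and Ly6c2 and the CD8 list both to -1.28 with S100a4 over without. Without the deepest cell, Hist1h2ae came to -0.80 over zero-sum cells, Mki67 to -0.33 and the cell cycle list to -0.048 over the regulatory gate, and Hist1h1b to -2.84 and Rrm2 to -3.51 over CD8 cells. Without the 3 zero-sum cells rich in myeloid or erythroid transcripts, Camp came to 0.10, Ngp to 0.37 and S100a9 to 0.0070. With equal weight per cell over CD8 cells, Rrm2 came to -0.17 and Xcl1 to 0.023, and after thinning Gata3 came to 0.014 over the regulatory gate. The removals of the deepest cell and of the 3 cells were chosen after seeing the data. The cause of the other changes was not tested. No paired analysis was possible because each genotype has 1 sample and barcodes are not tied to samples. Intervals cover counting error, and genes with few UMIs in 54 cells were below what this depth can resolve.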

Other observations

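Survival and glycolysis genes were compared too, where 7.18% of all genes with at least 20 UMIs were over 2-fold higher, with a median log2 ratio of 0.20. Among survival genes, Bcl2a1d (log2 ratio 3.53, 2.01 to 5.33), Bcl2a1b (log2 ratio 2.19, 1.46 to 2.93) and Bcl2l1 (log2 ratio 2.43, 1.02 to 3.93) were higher in the effector-memory CD4 gate than in zero-sum cells, whereas Bcl2 had a log2 ratio of -0.89. Of 14 measured survival and death genes 4 were over 2-fold higher and 0 lower, with a median of 0.32. Of 13 measured glycolysis genes 2 were over 2-fold higher, Pfkp (log2 ratio 1.38, 0.87 to 1.89) and Tpi1 (log2 ratio 1.28, 0.45 to 2.09), and 0 lower, with a median of 0.38. No difference of either list as a whole is read from these counts. Nrp1, a semaphorin co-receptor, had 18 UMIs in 11 gate cells and 6 UMIs in 5 zero-sum cells, and the rule left no Foxp3 or Ikzf2 in either.

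Cells that missed the gate through a single limit were counted as well. The Cd4 minimum alone kept out 23 cells, 1 of them with a UMI of Trdc, the γδ receptor constant gene, and the CD8 limit alone kept out 6. One of the 18 gate cells without S100a4 that were not Icos-only cells held 3 of the 7 Bcl6 UMIs of the gate.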
